A study of Mus musculus with 9 samples.

Results

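The proteasome genes described here are the 43 genes, of 13539 in the deposited table, whose symbol is Psma, Psmb, Psmc, Psmd, Psme, Psmf or Psmg followed by a number, without Psmb8, Psmb9 and Psmb10. They comprise 7 alpha and 7 beta subunits of the 20S core, 6 ATPases and 14 other Psmd genes of the 19S particle, 5 genes of activators and of an inhibitor (Psme1 to Psme4 and Psmf1), and 4 core assembly chaperones (Psmg1 to Psmg4). Psmd5, Psmd9 and Psmd10, listed with the 19S genes by name, encode chaperones of 19S assembly. The set goes by the working name of constitutive proteasome subunits, but Psme1 and Psme2 encode an activator that interferon is known to induce. Psma8 and Psmb11 are not analysed here.

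Values came from heart tissue of male mice aged 12 weeks on the C57BL/6JOlaHsd background, in 3 groups of 3 libraries. Treated knockout hearts lacked OMA1, a protease that cleaves proteins of the mitochondrial inner membrane under stress, and had received isoproterenol, a β-adrenergic agonist, at 10 mg/kg per day from implanted minipumps for 7 days. Treated wild-type hearts came from mice with intact Oma1 given the same drug in the same way. Untreated knockout hearts lacked OMA1 and are labelled as not treated, so pump implantation and drug cannot be told apart. No untreated wild-type hearts are analysed here, so whether genotype changed the response to the drug could not be tested. The labels give the libraries numbers but no animals, so p-values rest on the spread between these libraries, which may in part be technical. In bulk heart RNA, fewer cells of a type and less RNA per cell cannot be told apart.

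The proteasome is the main protease of the cytosol and nucleus and degrades proteins tagged with ubiquitin. Its 20S core is a barrel of alpha rings, which gate the entry, around beta rings, which hold the catalytic sites. The 19S particle binds ubiquitin, unfolds the substrate and threads it into the core, while the activators PA28 and PA200 open the gate without ATP. In heart muscle the proteasome turns over sarcomere and signalling proteins, and cells that lose proteasome activity are known to raise the subunit genes together through the transcription factor NFE2L1.

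Libraries held 6.93e+06 to 1.22e+07 reads, and Oma1 itself stood at 6.74, 5.73 and 6.25 in treated knockout hearts, 22.0, 19.9 and 17.7 in treated wild-type hearts and 6.52, 9.10 and 6.63 in untreated knockout hearts. Mitochondrially encoded transcripts took 38.2% to 42.5% of all counts in treated knockout hearts, 36.7% to 37.3% in treated wild-type and 33.9% to 34.6% in untreated knockout hearts. Replicate 2 of the treated knockout hearts was the highest of them. Replicate 3 of the treated wild-type hearts held the lowest value of the 9 libraries for 20 of the 43 proteasome genes. Heart muscle markers were present in every library, their sum being 34081 to 36246 in treated knockout hearts, 32390 to 38013 in treated wild-type and 38577 to 41523 in untreated knockout hearts. The 5 atrial markers summed to 87.8 to 119 in treated knockout, 53.5 to 844 in treated wild-type and 1129 to 2526 in untreated knockout hearts. Bmp10 was listed at 0 in every treated library and could be tested only through the untreated hearts, so calls of this list are not counted. The untreated hearts thus differed from both treated groups in atrial RNA as well as in treatment. Of 7 endothelial markers, 6 passed as higher in treated knockout against treated wild-type hearts and 7 against untreated knockout hearts. Among all tested genes 12% and 23.9% passed as higher in these comparisons. Endothelial sums were 1781 to 2170 in treated knockout, 1385 to 1526 in treated wild-type and 975 to 1075 in untreated knockout hearts. Against untreated knockout hearts, 5 of 6 tested fibroblast markers and 4 of 5 smooth muscle and pericyte markers were also higher in treated knockout hearts. In that comparison 23.9% of all tested genes were higher. Fibroblast sums were 1640 to 1745 in treated knockout, 1526 to 3503 in treated wild-type and 917 to 999.6 in untreated knockout hearts, and smooth muscle sums 958 to 1127, 978 to 1133 and 595 to 629 in the same groups. Dividing cell sums were 99.3 to 189 in treated knockout, 102 to 145 in treated wild-type and 11.4 to 16.2 in untreated knockout hearts. In untreated hearts the sum of all 6 barely exceeded the count of 10 set for testing each gene, so calls are not counted. The part of these markers in the results on proteasome genes was not tested.

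Proteasome transcripts varied less between libraries, in the median, than all tested genes, which were not matched to them for level. Of the 43 genes, 40 reached a normalized count of at least 10 in every library and were tested. The chaperone genes Psmd10, Psmg3 and Psmg4 did not. Across the 9 libraries the coefficient of variation had a median of 7.67% over the 40 tested genes and of 13.3% over all 8543 genes tested. No proteasome gene differed by 2-fold in any comparison. The 43 genes together took 0.254% to 0.282% of the signal in treated knockout hearts, 0.265% to 0.282% in treated wild-type and 0.280% to 0.288% in untreated knockout hearts. As a share of the signal without mitochondrial transcripts they took 0.441% to 0.456% in treated knockout hearts, 0.418% to 0.449% in treated wild-type and 0.423% to 0.436% in untreated knockout hearts. The order of the groups thus depended on whether mitochondrial transcripts were counted in.

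**Figure D1:**
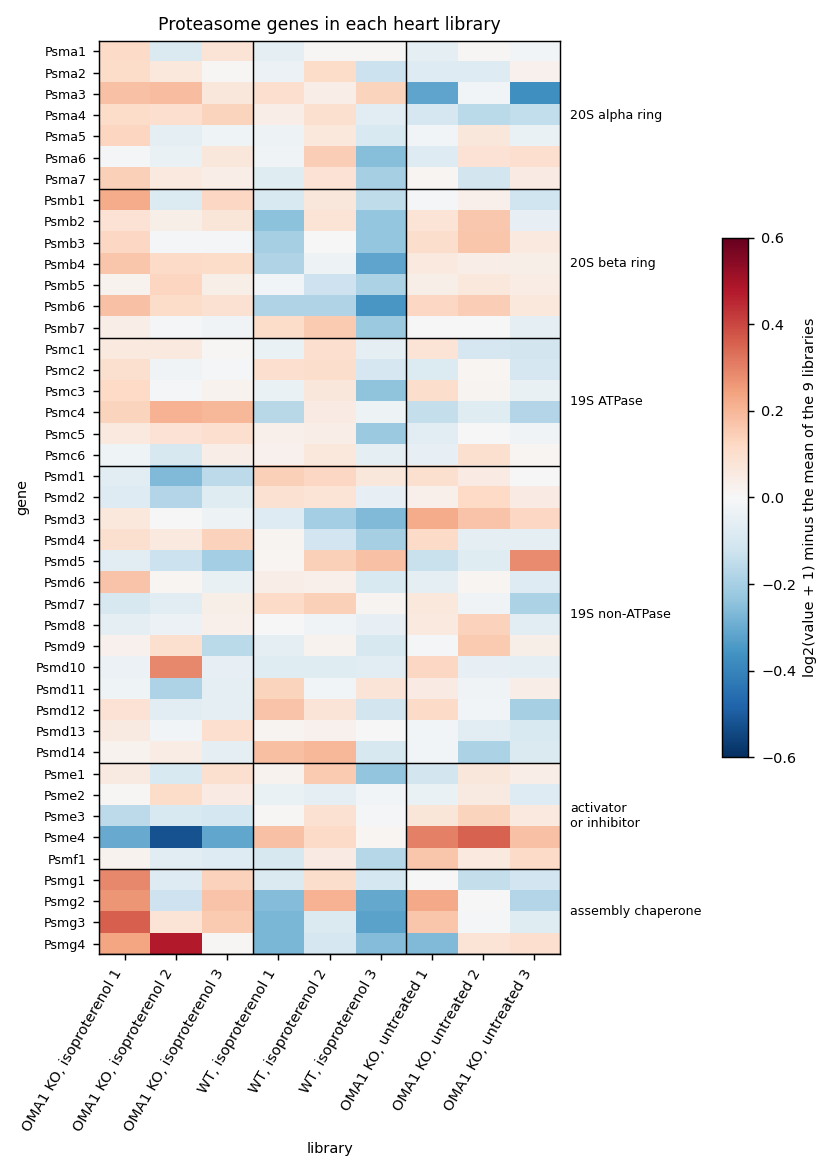
Each row is a proteasome gene, grouped by role, and each column a library. Colour gives log2(normalized count + 1) minus the gene's mean over the 9 libraries. The row of Psme4 is low in the 3 treated knockout libraries, and many rows are pale blue in replicate 3 of the treated wild-type hearts, which was lowest for 20 genes.

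Levels can be compared between genes only per length of transcript, and this paragraph gives normalized counts per kilobase of the principal transcript, averaged over the 9 libraries. The beta genes had a median of 68.3 per kilobase and the alpha genes 63.9, against 41.5 for the 19S ATPases and 33.2 for the other Psmd genes. With the principal transcripts, levels ran from 3.42 for Psmd5 to 92.3 for Psmb7. The order of single genes rests on the transcript chosen: with the shortest coding transcript Psme4 came to 508, Psmd2 to 380 and Psma3 to 192, all above Psmb7, and Psmd5 to 27.1, above Psmg3 at 5.49.

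The comparison of treated knockout with treated wild-type hearts asks how loss of OMA1 alters the loaded heart. Among all genes, 27.8% passed the threshold, an adjusted p under 0.05 by limma, 12% higher and 15.9% lower in knockout hearts. Of the 40 tested proteasome genes, 3 were higher and 2 lower, which is 12.5% and below that background. Psmb6, Psmb4 and Psmc4 were higher, and Psme4 and Psmd1 were lower. The median log2 difference was 0.05 over the proteasome genes and -0.01 over all tested genes, and the median size of the difference, whatever its sign, was 0.12 against 0.18. All 3 treated knockout libraries lay above the wild-type libraries for 9 of the 40 tested genes and below them for 6. Among all tested genes the shares were 20% and 23.6%.

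Among the 40 tested genes, Psme4 had the largest log2 difference in size in both comparisons with treated knockout hearts. It encodes PA200, a large nuclear activator that caps the core and is known from mouse testis and from yeast for the turnover of acetylated histones. The gene lies on chromosome 11 from 30771726 to 30880361 on GRCm38, and its transcript of 6491 bases is the longest of the set. Psme4 stood at 233, 200 and 231 in treated knockout hearts, 324, 311 and 290 in treated wild-type hearts and 354, 367 and 324 in untreated knockout hearts. Every treated knockout library was below every library of the other groups, which met at 324. In treated knockout hearts it averaged 221 ± 18.6, against 308 ± 17.6 in treated wild-type and 348 ± 21.9 in untreated knockout hearts (SD, n = 3 each). The log2 difference was -0.48 ± 0.08 against treated wild-type hearts (SE; adjusted p = 0.0016) and -0.66 ± 0.08 against untreated knockout hearts (adjusted p = 2.8e-05), or 1.39-fold and 1.57-fold lower. Corrected for transcript length and GC content, the difference from wild-type hearts was -0.30 (adjusted p = 0.016), and -0.25 if replicate 2 of the treated knockout hearts was also left out, which no longer passed. Against untreated knockout hearts it passed in all 24 alternatives. Treated wild-type and untreated knockout hearts differed by -0.18 ± 0.08 (adjusted p = 0.11), and by -0.30 after that correction (adjusted p = 0.0089).

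The other activators and the inhibitor moved little between the treated groups. Psme3, which encodes the nuclear PA28γ, stood at 40.4, 42.3 and 41.9 in treated knockout hearts, 45.4, 48.1 and 44.8 in treated wild-type hearts and 47.5, 49.7 and 47.0 in untreated knockout hearts. Treated knockout libraries were again the lowest, without overlap. The log2 difference was -0.15 ± 0.07 against treated wild-type hearts (adjusted p = 0.13) and -0.20 ± 0.07 against untreated knockout hearts, where it passed (adjusted p = 0.024). That call was lost in 4 alternatives, namely without replicate 1 of the treated or replicate 2 of the untreated knockout hearts, by DESeq2, and with scaling without mitochondrial transcripts. Psme1, for PA28α, stood at 82.9, 74.8 and 85.3 in treated knockout hearts, 80.8, 88.9 and 67.5 in treated wild-type hearts and 73.8, 83.6 and 82.1 in untreated knockout hearts. Its partner Psme2, for PA28β, stood at 39.0, 41.9 and 40.2 in treated knockout hearts, 37.7, 37.2 and 38.3 in treated wild-type hearts and 37.7, 40.2 and 36.6 in untreated knockout hearts. Psmf1, for the inhibitor PI31, stood at 16.5, 15.4 and 15.3 in treated knockout hearts, 15.1, 16.8 and 14.3 in treated wild-type hearts and 18.4, 17.0 and 17.7 in untreated knockout hearts. None of Psme1, Psme2 and Psmf1 passed in any of the 3 comparisons, their log2 differences running from -0.19 to 0.09. Psmf1 passed after length and GC correction alone, at -0.26 in treated wild-type against untreated knockout hearts (adjusted p = 0.038). The summed level of 7 interferon response markers was 140 to 183 in treated knockout hearts, 109 to 125 in treated wild-type and 87.8 to 111 in untreated knockout hearts. Of the 5 that were tested, 4 were higher in treated knockout hearts in each comparison, against 12% of all genes higher than in treated wild-type and 23.9% higher than in untreated knockout hearts. Whether they moved differently from Psme1 and Psme2 was not tested.

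**Figure D2:**
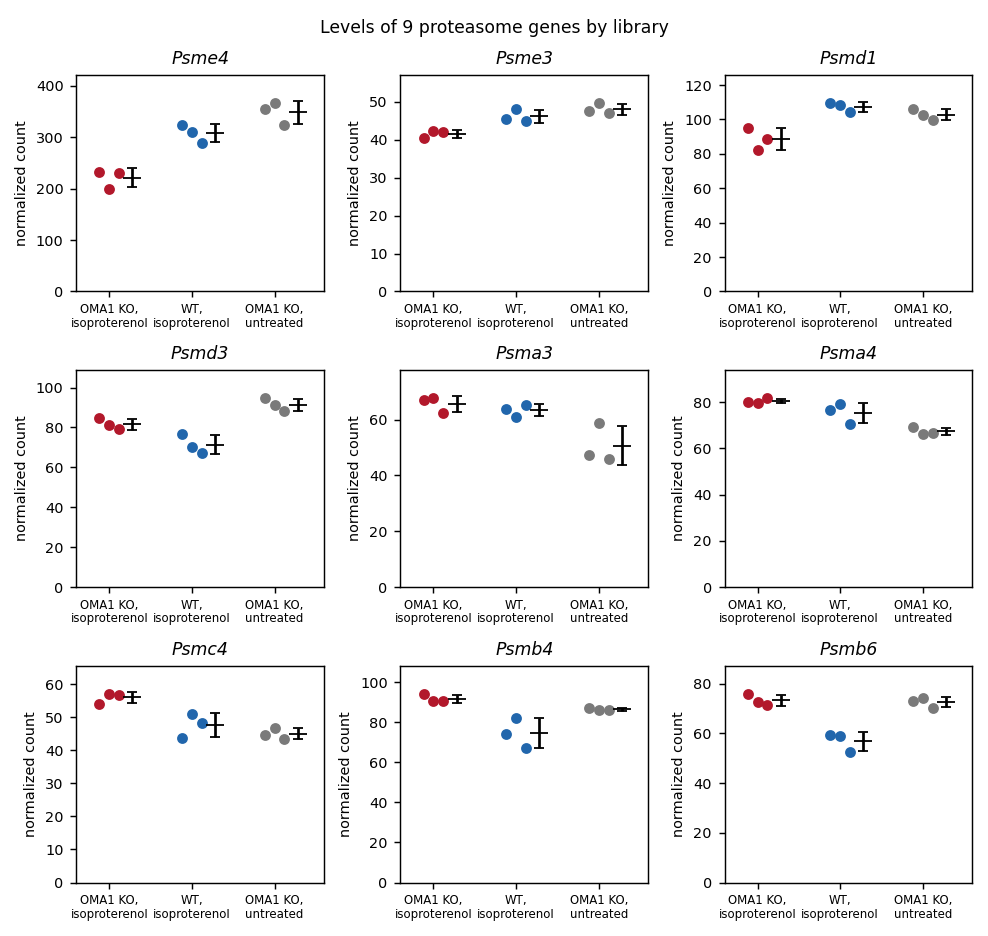
Normalized counts of 9 proteasome genes in each library, with the mean and SD of each group in black beside its points and each axis starting at 0. Psme4 lies at 200 to 233 in treated knockout hearts and at 290 or more elsewhere, whereas Psmb6 is lowest in treated wild-type hearts, at 52.4 to 59.1.

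Among the beta subunits, 2 of 7 were higher in treated knockout than in treated wild-type hearts, and 6 of 7 had a positive log2 difference, with a median of 0.18. Psmb6, the β1 subunit with caspase-like activity (chromosome 11, 70525367 to 70527858), stood at 75.9, 72.5 and 71.5 in treated knockout hearts, 59.1, 59.0 and 52.4 in treated wild-type hearts and 73.1, 74.4 and 70.2 in untreated knockout hearts. Treated wild-type libraries were below those of both knockout groups. The log2 difference was 0.36 ± 0.07 between treated knockout and wild-type hearts (adjusted p = 0.0038) and 0.01 ± 0.07 between the knockout groups (adjusted p = 0.88). Psmb4, the β7 subunit without a catalytic site, stood at 94.2, 90.8 and 90.6 in treated knockout hearts, 74.0, 82.2 and 67.2 in treated wild-type hearts and 87.3, 86.3 and 85.9 in untreated knockout hearts. It too was lowest in treated wild-type hearts, without overlap, and differed by 0.30 ± 0.08 between the treated groups (adjusted p = 0.012). Both genes have short transcripts, and corrected for length and GC content the differences were 0.10 for Psmb6 (adjusted p = 0.30) and 0.20 for Psmb4 (adjusted p = 0.053).

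The other catalytic subunits did not pass. Psmb5, the β5 subunit with chymotrypsin-like activity (chromosome 14, 54614119 to 54618022), stood at 62.3, 67.1 and 62.8 in treated knockout hearts, 60.7, 56.3 and 53.6 in treated wild-type hearts and 62.8, 64.1 and 63.3 in untreated knockout hearts. Treated wild-type libraries were again the lowest, but the log2 difference of 0.17 ± 0.07 between the treated groups missed the threshold (adjusted p = 0.090). It was -0.10 after length and GC correction. Psmb7, the β2 subunit with trypsin-like activity, stood at 110, 106 and 105 in treated knockout hearts, 116, 119 and 91.5 in treated wild-type hearts and 107, 107 and 103 in untreated knockout hearts. Its wild-type libraries spanned the range of the others, and the log2 difference was -0.01 ± 0.09. The exons of Psmb7 overlap those of Nek6 on the opposite strand, and processed pseudogene names such as Psmb5-ps, Psmb6-ps, Psmb6-ps2 and Psmb7-ps2 stand in the annotation, so reads of these subunits can be shared.

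Of the alpha subunits, none of 7 passed between the treated groups, where 27.8% of all tested genes did. Their log2 differences were all positive and small, from 0.03 to 0.14. In the 19S particle, Psmc4, the ATPase Rpt3, stood at 54.1, 57.01 and 56.7 in treated knockout hearts, 43.8, 51.0 and 48.2 in treated wild-type hearts and 44.6, 46.9 and 43.5 in untreated knockout hearts. All treated knockout libraries were above all others, with a log2 difference of 0.23 ± 0.08 from treated wild-type hearts (adjusted p = 0.038). That call was lost in 12 of 24 alternatives, among them the length and GC correction, where it was 0.12, and leaving out any treated knockout replicate, treated wild-type replicate 1 or untreated knockout replicate 1. The other 5 ATPases ran from -0.04 to 0.13 and did not pass.

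Psmd1, the scaffold subunit Rpn2 of the 19S base, stood at 94.9, 82.3 and 88.9 in treated knockout hearts, 110, 108 and 104 in treated wild-type hearts and 106, 103 and 99.5 in untreated knockout hearts. Treated knockout libraries were the lowest, without overlap, by a log2 difference of -0.27 ± 0.07 from treated wild-type hearts (adjusted p = 0.014; -0.18 with adjusted p = 0.074 after length and GC correction). Psmd4, the ubiquitin receptor Rpn10, stood at 61.2, 59.5 and 63.1 in treated knockout hearts, 57.8, 52.8 and 49.7 in treated wild-type hearts and 62.1, 55.0 and 54.9 in untreated knockout hearts. Its treated groups did not overlap, yet the difference of 0.20 ± 0.08 missed the threshold (adjusted p = 0.079). Psmd14, the deubiquitinase Rpn11 that strips ubiquitin from substrates, stood at 33.3, 33.8 and 31.4 in treated knockout hearts, 37.2, 37.7 and 30.6 in treated wild-type hearts and 32.4, 28.5 and 30.8 in untreated knockout hearts. Psmd11, the clamp subunit Rpn6, stood at 57.2, 51.2 and 56.1 in treated knockout hearts, 64.0, 57.5 and 61.6 in treated wild-type hearts and 60.3, 57.3 and 59.96 in untreated knockout hearts. Neither passed in any comparison, although treated knockout libraries held the lowest values of Psmd11.

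Chaperone transcripts were low throughout. Psmg1 ranged from 11.4 to 14.9 in treated knockout hearts, 11.1 to 13.0 in treated wild-type and 10.8 to 12.1 in untreated knockout hearts, and Psmg2 from 15.5 to 20.6, 13.6 to 19.8 and 14.9 to 20.1 in the same groups. Neither passed. The untested Psmg3 stood at 5.39, 4.27 and 4.54 in treated knockout hearts, 3.12, 3.69 and 2.98 in treated wild-type hearts and 4.59, 3.94 and 3.73 in untreated knockout hearts. Psmg4 ranged from 3.57 to 5.32 in treated knockout, 2.75 to 3.23 in treated wild-type and 2.78 to 3.87 in untreated knockout hearts, and Psmd10 from 7.38 to 9.59, 7.24 to 7.30 and 7.32 to 8.46. These 3 genes had only 23 to 92 reads per library and were not tested.

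Differences between the treated groups went with transcript length across all genes. With the tested genes ordered into 5 classes of near-equal size, the shortest, with principal transcripts of 151 to 1810 bases, had a median log2 difference of 0.15, with 23.6% higher and 2.3% lower in knockout hearts. The longest class, from 5267 bases, had a median of -0.12, with 6.3% higher and 27.8% lower. Proteasome transcripts are short, with a median of 1440 bases against 3239.5 for all tested genes, and 26 of the 40 tested lay in the shortest class. Their median there was 0.10, below that of the class as a whole. After each library was corrected for length and GC content, 0 proteasome genes were higher and 1, Psme4, was lower, against 9.03% and 9.45% of all genes. By edgeR on the recovered reads, 5 were higher and 2 lower without that correction, and by DESeq2 3 and 2. Whether the trend with length is of technical or biological origin was not tested.

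**Figure D3:**
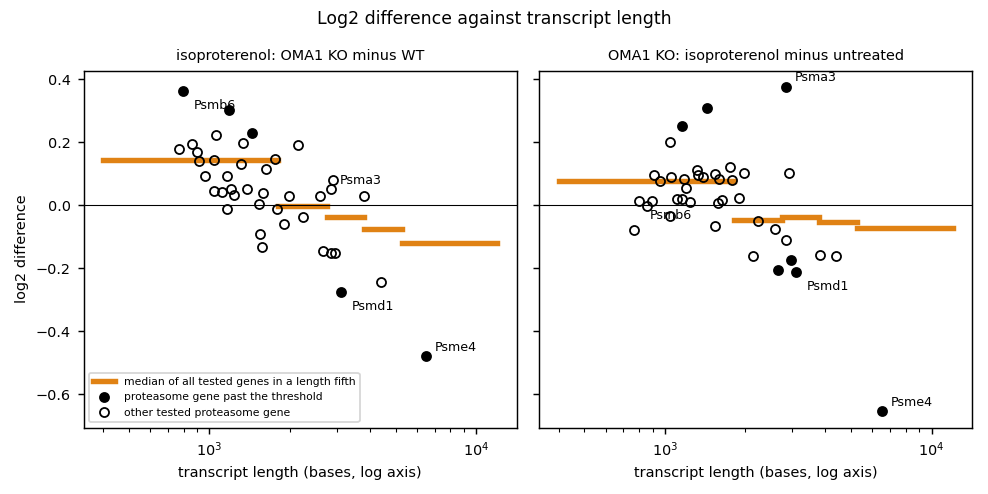
Log2 difference of each tested proteasome gene against the length of its principal transcript (log axis), for treated knockout minus treated wild-type hearts at left and treated minus untreated knockout hearts at right. Orange bars are the medians of all tested genes in each of the 5 length classes, drawn to the edge of the plotted range; at left they fall with length, from 0.15 to -0.12, and Psmb6 and Psme4 lie at the ends of the range.

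The comparison of treated with untreated knockout hearts asks how hearts without OMA1 differ with isoproterenol given by minipump. Drug, pump implantation and the difference in atrial RNA cannot be told apart in it. Of all tested genes 51.4% passed the threshold, 23.9% higher and 27.4% lower. Only 7 of 40 proteasome genes did (17.5%), 3 higher and 4 lower. Psma3, Psma4 and Psmc4 were higher, and Psme4, Psmd1, Psme3 and Psmd2 were lower. The median log2 difference was 0.02 over the proteasome genes and -0.02 over all tested genes, with a median size of 0.09 against 0.25. Treated libraries lay above untreated ones for 5 of the 40 tested genes and below them for 7, against 29.2% and 33.4% of all tested genes. This comparison shares the treated knockout libraries with the previous one. After length and GC correction 3 were higher and 4 lower, against 24.9% and 27.4% of all genes; Psmd2 no longer passed (-0.14, adjusted p = 0.084), while Psmd3 did (-0.18, adjusted p = 0.038). Scaled without mitochondrial transcripts, whose share differed between the groups, 15 were higher and 1 lower here. That scaling moved the median of all genes to 0.09. Between the treated groups it gave 7 higher and 2 lower.

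Psma3, the α7 subunit of the outer ring (chromosome 12, 70974621 to 70996347), stood at 67.2, 67.6 and 62.4 in treated knockout hearts, 63.7, 61.1 and 65.4 in treated wild-type hearts and 47.5, 58.7 and 45.9 in untreated knockout hearts. All 6 treated libraries were above the 3 untreated ones. Treated knockout hearts averaged 65.7 ± 2.91 and untreated ones 50.7 ± 6.97 (SD, n = 3 each), a log2 difference of 0.38 ± 0.09 (adjusted p = 0.0034). Psma4, the α3 subunit whose yeast counterpart helps to close the gate, stood at 80.1, 79.8 and 81.7 in treated knockout hearts, 76.5, 79.3 and 70.7 in treated wild-type hearts and 69.1, 66.3 and 66.9 in untreated knockout hearts. Its difference was 0.25 ± 0.07 (adjusted p = 0.0072), again with the untreated libraries lowest, and that of Psmc4 was 0.31 ± 0.08 (adjusted p = 0.0040). These 3 genes and Psme4 passed in all 24 alternatives.

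The scaffold genes of the 19S base were lower in the treated knockout hearts. Psmd1 differed by -0.21 ± 0.07 (adjusted p = 0.024), a call lost in 8 alternatives, among them leaving out treated knockout replicate 2 or 3 or untreated knockout replicate 1 or 2. Psmd2, the subunit Rpn1 that docks ubiquitin shuttle factors, stood at 159, 148 and 159 in treated knockout hearts, 179, 177 and 162 in treated wild-type hearts and 171, 182 and 173 in untreated knockout hearts. Treated knockout libraries were the lowest, but the difference of -0.18 ± 0.07 (adjusted p = 0.047) lay at the threshold and was lost in 18 alternatives, leaving out any knockout library or treated wild-type replicate 1 or 2 included. None of the 7 beta subunits passed, where 51.4% of all tested genes did, and their log2 differences ran from -0.08 to 0.12.

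**Figure D4:**
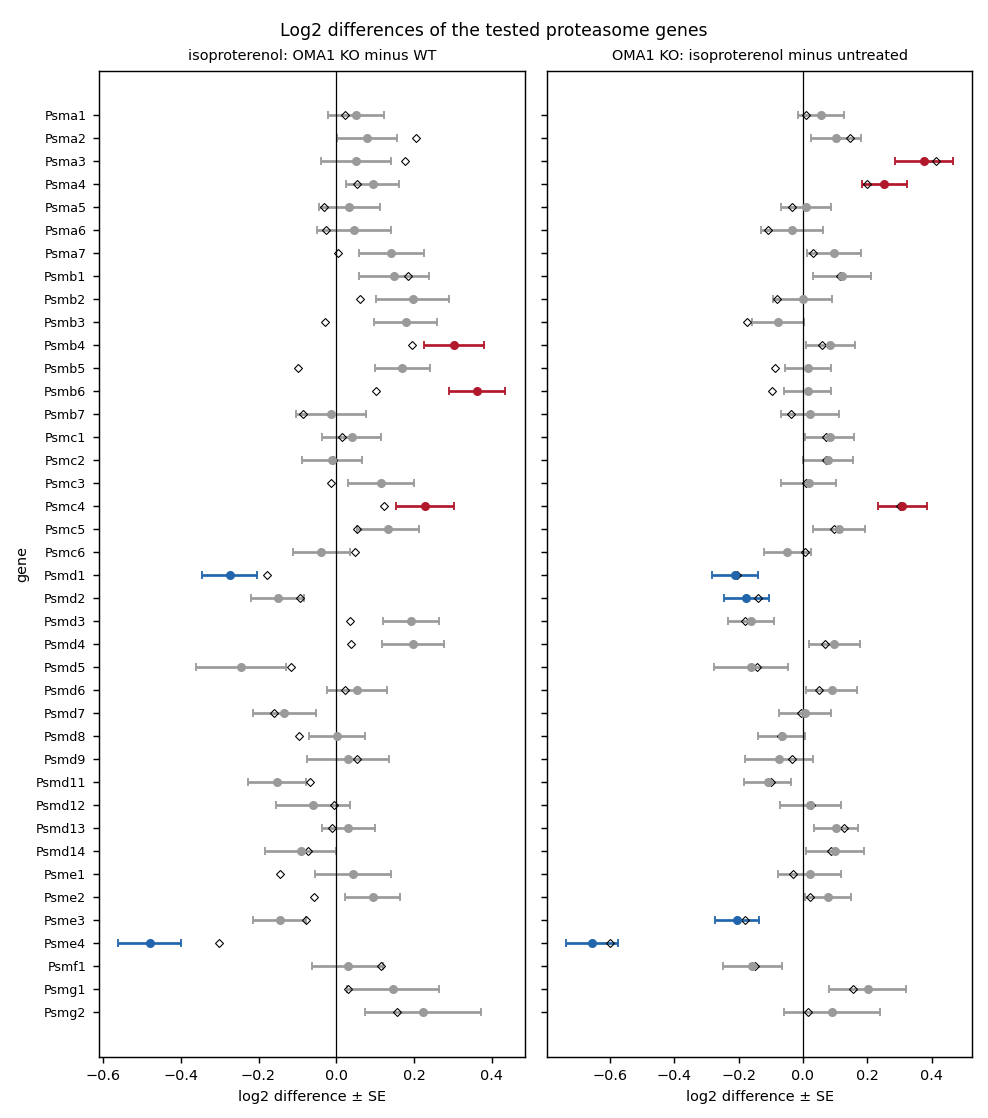
Log2 differences with SE for the 40 tested proteasome genes, treated knockout minus treated wild-type hearts at left and treated minus untreated knockout hearts at right. Red marks genes higher and blue genes lower at an adjusted p under 0.05, and open diamonds show the value after length and GC correction. At left the diamonds of Psmb6 and Psmb4 lie closer to 0, at 0.10 and 0.20, while at right those of Psma3 and Psme4 remain at 0.41 and -0.60.

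Treated wild-type against untreated knockout hearts differ in genotype and treatment at once, which cannot be told apart. Of all tested genes 33.2% passed, 16.4% higher and 16.9% lower in treated wild-type hearts, against 5 of 40 proteasome genes (12.5%), 1 higher and 4 lower. Psma3 was higher, by 0.33 ± 0.09 (adjusted p = 0.014), a call lost without untreated replicate 1 or 3. Psmd3, the subunit Rpn3 of the 19S lid, stood at 84.7, 81.1 and 79.2 in treated knockout hearts, 76.7, 70.2 and 67.3 in treated wild-type hearts and 94.6, 91.3 and 88.4 in untreated knockout hearts. Its 3 groups did not overlap. The log2 difference was -0.35 ± 0.07 here (adjusted p = 0.0023), 0.19 ± 0.07 between treated knockout and treated wild-type hearts (adjusted p = 0.060) and -0.16 ± 0.07 between the knockout groups (adjusted p = 0.075). Psmb6 was lower in treated wild-type hearts by a log2 difference of -0.35 ± 0.07 (adjusted p = 0.0026). Psmb3, a structural subunit of the beta ring, stood at 51.4, 46.8 and 46.8 in treated knockout hearts, 40.9, 47.2 and 40.0 in treated wild-type hearts and 50.9, 53.0 and 49.2 in untreated knockout hearts. Its difference was -0.26 ± 0.08 (adjusted p = 0.027), and that of Psmb4 -0.22 ± 0.08 (adjusted p = 0.043). The call of Psmb3 was lost without treated wild-type replicate 1 or 3 or untreated replicate 1 or 2, and that of Psmb4 in 16 alternatives, leaving out any library but treated knockout or treated wild-type replicate 2 included. After length and GC correction 0 were higher and 4 lower, against 14.7% and 16% of all genes. These 4 were Psmd3, Psmb6, Psme4 and Psmf1, whereas Psma3, Psmb3 and Psmb4 no longer passed. Libraries of treated wild-type hearts lay above those of untreated knockout hearts for 3 of the 40 tested genes and below them for 6, against 23.4% and 24.1% of all tested genes. Without mitochondrial transcripts in the scaling, 3 were higher and 2 lower.

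Counts were also summed over the genes of each part of the proteasome and set against each other. The summed 20S counts were 0.766 to 0.779 of the summed 19S counts in treated knockout hearts, 0.687 to 0.730 in treated wild-type and 0.704 to 0.737 in untreated knockout hearts. The treated knockout libraries were highest, without overlap. The beta sum was 1.10 to 1.11 times the alpha sum in treated knockout hearts, 0.983 to 1.05 in treated wild-type and 1.14 to 1.22 in untreated knockout hearts. In that ratio the 3 groups did not overlap, whereas treated wild-type and untreated knockout hearts overlapped in the ratio of 20S to 19S counts. Beta transcripts are the shorter ones, with a median of 899 bases against 1201 for alpha and 1710.5 for 19S transcripts, and the ratios were not corrected for length. Psme4 alone made up 7.73% to 8.64% of the summed counts in treated knockout hearts, 11.1% to 11.9% in treated wild-type and 12.1% to 13.0% in untreated knockout hearts. These sums were chosen after the values were seen and are given without a test.

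**Figure D5:**
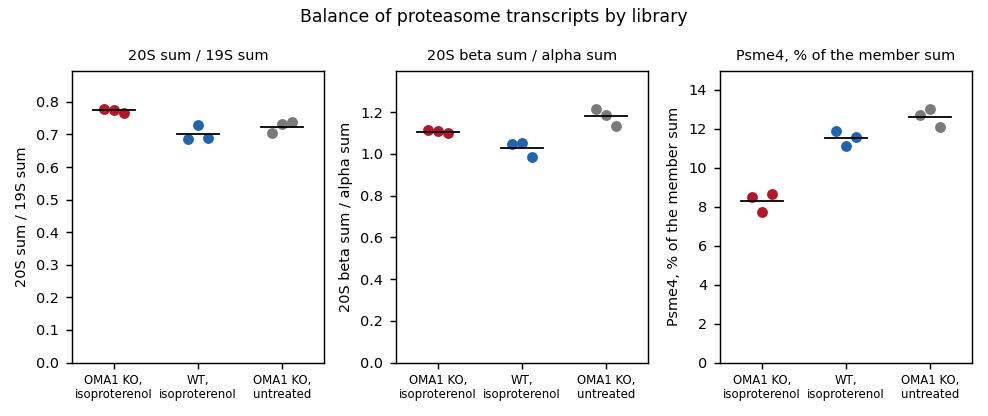
Ratio of the summed 20S to the summed 19S counts, ratio of the beta to the alpha sum, and share of Psme4 in the summed counts of the 43 genes. Points are libraries and lines group means. Treated knockout hearts are highest in the left panel, at 0.766 to 0.779, and lowest in the right panel, at 7.73% to 8.64%.

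The promoters of genes that stood out were read from RefSeq for GRCm38.p6, in windows from 250 bases before to 50 after the start site. A window was found for 36 of the 43 genes. The core of the antioxidant response element, which NFE2L1 and NFE2L2 bind, was searched on both strands as TGAC, any 3 bases, then GC. It stood in the windows of 6 of the 36 genes (16.7%), namely Psmb5, Psmb6, Psmc6, Psmd9, Psmd12 and Psme4, against 14% of 27025 genes. CCAAT, the box bound by NF-Y, stood on either strand in 12 of 36 (33.3%), against 41.1% of all genes. The shares among proteasome promoters lay near or below those among all promoters. Shown are 152 bases, from 150 before the start site to base 2 of the transcript, for Psme4 (the gene that fell most), for the catalytic subunits Psmb6 and Psmb5 and for Psma3 (the gene that rose most between the knockout groups), with the element core or CCAAT in capitals. They lie at chr11:30771625-30771776 on the plus strand for Psme4, chr11:70525207-70525358 on the plus strand for Psmb6, chr14:54617994-54618145 on the minus strand for Psmb5 and chr12:70974473-70974624 on the plus strand for Psma3. The capitals of Psme4 hold the element on the opposite strand.
Psme4: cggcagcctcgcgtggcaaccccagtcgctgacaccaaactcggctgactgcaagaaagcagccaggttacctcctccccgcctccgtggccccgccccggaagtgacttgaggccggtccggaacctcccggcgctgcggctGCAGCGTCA
Psmb6: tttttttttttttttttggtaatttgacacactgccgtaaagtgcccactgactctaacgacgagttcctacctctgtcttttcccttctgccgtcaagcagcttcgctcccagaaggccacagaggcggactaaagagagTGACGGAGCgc
Psmb5: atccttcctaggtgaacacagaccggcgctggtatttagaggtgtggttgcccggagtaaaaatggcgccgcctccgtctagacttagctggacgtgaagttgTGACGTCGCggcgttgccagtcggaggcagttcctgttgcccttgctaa
Psma3: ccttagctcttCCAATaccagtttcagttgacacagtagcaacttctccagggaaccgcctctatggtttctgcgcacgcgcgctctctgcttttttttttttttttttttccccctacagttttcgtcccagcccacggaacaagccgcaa
A match describes these letters and shows no binding.

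Immunoproteasome subunits, which replace Psmb5, Psmb6 and Psmb7 in cells exposed to interferon, had their lowest means in treated wild-type hearts. Both tested ones passed as higher in treated knockout than in treated wild-type hearts, where 12% of all tested genes were higher. Psmb8, which replaces Psmb5, stood at 12.1, 18.97 and 13.8 in treated knockout hearts, 8.89, 10.8 and 10.3 in treated wild-type hearts and 10.1, 15.1 and 13.0 in untreated knockout hearts. It was higher than in treated wild-type hearts by 0.52 ± 0.16 (adjusted p = 0.032), and not after length and GC correction (0.37, adjusted p = 0.13). Psmb10, which replaces Psmb7, was higher by 0.28 ± 0.09 (adjusted p = 0.026; 0.07 after that correction). Without treated knockout replicate 2, or without treated wild-type replicate 1 or 2, neither call held, and that of Psmb10 was also lost without treated knockout replicate 1. The untested Psmb9, which replaces Psmb6, ranged from 7.36 to 11.2 in treated knockout hearts, 5.76 to 7.30 in treated wild-type and 6.52 to 9.22 in untreated knockout hearts. Between the knockout groups, where 51.4% of all tested genes passed, neither Psmb8 nor Psmb10 did. Psmb10 was lower in treated wild-type than in untreated knockout hearts, by -0.29 ± 0.09 (adjusted p = 0.018), where 16.9% of all tested genes were lower. That call was lost in 8 alternatives, among them leaving out treated wild-type replicate 2 or untreated replicate 1 or 2.

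Of 11 tested genes for proteins that bind or assemble the proteasome, 3 were higher and 3 lower in treated knockout than in treated wild-type hearts, 2 higher and 1 lower against untreated knockout hearts, and 2 higher and 0 lower in treated wild-type against untreated knockout hearts. Among all tested genes the shares called in either direction were 27.8%, 51.4% and 33.2% in these comparisons. Shfm1, the small 19S subunit Sem1, stood at 84.2, 87.9 and 76.2 in treated knockout hearts, 65.2, 60.2 and 59.7 in treated wild-type hearts and 55.3, 50.7 and 48.8 in untreated knockout hearts. Its groups did not overlap in any comparison. The log2 difference was 0.42 ± 0.08 from treated wild-type hearts (adjusted p = 0.0029), 0.67 ± 0.08 from untreated knockout hearts (adjusted p = 2e-05), and 0.42 and 0.69 after length and GC correction. Ube3c, a ubiquitin ligase that rides on the proteasome, stood at 45.8, 36.0 and 44.0 in treated knockout hearts, 62.5, 60.8 and 54.6 in treated wild-type hearts and 57.7, 58.8 and 56.0 in untreated knockout hearts. It was lowest in treated knockout hearts, by -0.50 ± 0.09 against treated wild-type (adjusted p = 0.0026) and -0.45 ± 0.09 against untreated knockout hearts (adjusted p = 0.0011). Usp14, a deubiquitinase of the 19S particle, differed by -0.36 ± 0.09 between the treated groups (adjusted p = 0.0094), and Adrm1, the ubiquitin receptor Rpn13, by 0.35 ± 0.08 (adjusted p = 0.0083). After length and GC correction Usp14 and Adrm1 differed by -0.21 and 0.09 and no longer passed. Outside the 4 with the smallest p, Pomp, which matures the core, differed by 0.29 ± 0.08 (adjusted p = 0.013), and AI314180, the mouse homologue of yeast Ecm29, by -0.38 ± 0.09 (adjusted p = 0.010; -0.20 after that correction, which no longer passed). Akirin2, which brings proteasomes into the nucleus, was the other gene higher in treated than in untreated knockout hearts, by 0.27 ± 0.10 (adjusted p = 0.030), a call lost without replicate 3 of either group. Shfm1 and Usp14 were higher in treated wild-type than in untreated knockout hearts, by 0.25 ± 0.08 and 0.30 ± 0.09; the call of Shfm1 was lost without treated wild-type replicate 1 or untreated replicate 2 or 3, and that of Usp14 without treated wild-type replicate 2 or untreated replicate 3, and after length and GC correction.

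Of 14 tested genes that control proteasome transcription or process its factors, 0 were higher and 2 lower in treated knockout than in treated wild-type hearts, against 2 higher and 4 lower than in untreated knockout hearts. Among all tested genes 27.8% and 51.4% passed in either direction in these comparisons. Whether the counts differ was not tested. The 2 were Nploc4, a cofactor of the segregase p97 (-0.28 ± 0.09, adjusted p = 0.031, lost in 8 alternatives, among them the length and GC correction and leaving out treated knockout replicate 2 or treated wild-type replicate 1 or 2), and Ngly1, which deglycosylates NFE2L1 (-0.23 ± 0.08, adjusted p = 0.049, lost in 22 alternatives, leaving out any library but treated knockout replicate 3 included). Nfe2l1, whose product drives the proteasome genes when proteasome activity is short, stood at 346, 317 and 364 in treated knockout hearts, 406, 359 and 352 in treated wild-type hearts and 449, 463 and 441 in untreated knockout hearts. Untreated libraries were the highest, with log2 differences of -0.40 ± 0.08 for treated against untreated knockout hearts (adjusted p = 0.00079) and -0.12 ± 0.08 between the treated groups (adjusted p = 0.26). Nfya, a subunit of NF-Y, was higher in treated than in untreated knockout hearts by 0.63 ± 0.10 (adjusted p = 0.00013), and Nfyb by 0.40 ± 0.14 (adjusted p = 0.031), a call lost without replicate 1 or 3 of the treated or 1 or 2 of the untreated knockout hearts. Foxo3, a forkhead factor of muscle wasting, differed by -0.52 ± 0.10 (adjusted p = 0.00096), Nploc4 by -0.28 ± 0.09 (adjusted p = 0.016, lost without treated knockout replicate 2) and Nfyc by -0.20 ± 0.08 (adjusted p = 0.038, lost in 10 alternatives, among them leaving out treated replicate 2 or 3 or any untreated replicate). In treated wild-type against untreated knockout hearts 3 of the 14 were higher and 3 lower, where 33.2% of all tested genes passed. Among them were Nfya by 0.55 ± 0.10 and Nfe2l1 by -0.28 ± 0.08, the call of Nfe2l1 being lost without untreated replicate 2.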

How the data were processed

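The deposited table holds 1 value per gene and library in the unit signal: per the labels, the authors deposited normalized expected counts, and the submitters' processing notes name cutadapt, RSEM 1.17, limma and GRCm38. Aligner, annotation and settings: not given in the sources used here. Within a tolerance of 0.02 reads, 100% of low values were whole multiples of a step per library, so whole reads were recovered.

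After a log2(value + 1) transform, limma (version 3.58.1, under R 4.3.3) compared group means over all 9 libraries for the 8543 genes that reached 10 in 3 or more of them. It used a common spread with a mean-variance trend, and its two-sided p-values were adjusted by Benjamini-Hochberg over all tested genes at 0.05. Fold changes on this scale understate those of low genes. Lengths, GC content and positions came from GENCODE M21; the correction used natural splines of 5 degrees of freedom per library. Alternatives covered pseudocount, filter, scaling, fit, replicate block, each library left out, and edgeR 4.0.16 and DESeq2 1.42.0 on recovered reads; 2 were added after seeing the data. The fits were checked on simulated counts. The members, gene lists and rule for naming genes were chosen with earlier results of these data known. The rule gave per-library values for Psmb5, Psmb6, Psmb7, Psmd4, Psmd14, Psmd11, Psme1 to Psme4 and Psmf1, for up to 8 called members each way in the comparisons with treated knockout hearts and 3 in the other, and up to 4 genes of each list; Psmg3, Ubb and the other listed genes beyond 4 were added after their values were seen. Without strand information in the sources used here, reads of overlapping genes cannot be told apart. Some genes of the fixed lists are not reported here, and the counts of those lists leave them out.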

Additional observations from a re-analysis of the deposited data

How the results depend on the processing

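Each of the 40 tested genes was refitted in 3 comparisons under 24 alternatives, giving 960 values a comparison. The side of the threshold held for 921 values in treated knockout against treated wild-type hearts. It held for 916 in treated against untreated knockout hearts and 918 for the remaining pair of groups. No called proteasome gene changed sign. Direction was not counted for uncalled genes, some of which did change sign. Psmb5, at 0.17 between the treated groups, reached -0.12 at the lowest. In treated knockout against treated wild-type hearts, 6 proteasome genes were higher with quantile normalization, 7 with cyclic loess, 7 with scaling without mitochondrial transcripts, 5 by edgeR and 0 with the length and GC correction, also without treated wild-type replicate 3 or treated knockout replicate 2. The number lower was 1 with that correction, 1 without that wild-type replicate and 0 without that knockout replicate. All genes past the threshold numbered 2379, 1570 with the correction and 726 if treated knockout replicate 2 was also left out. Leaving out each library in turn gave 2 to 5 higher and 2 to 3 lower, and 1336 (without treated knockout replicate 2) to 2382 of all genes. In treated against untreated knockout hearts, 15 were higher and 1 lower without mitochondrial transcripts in the scaling, 2 lower with quantile normalization, 2 with cyclic loess, 2 by DESeq2 and 2 with the correction without treated knockout replicate 2. Leaving out each library gave 3 higher throughout and 1 to 4 lower. In treated wild-type against untreated knockout hearts, 2 were higher with cyclic loess, 3 without mitochondrial transcripts and 0 with the correction, whichever of these libraries was left out. The number lower was 2 without mitochondrial transcripts and 1 with the correction without treated wild-type replicate 3. Leaving out each library gave 0 to 3 higher and 2 to 5 lower. The cause of these shifts was not tested. Whether replicate numbers pair the samples is not known from the labels. Deviations from the group means correlated from -0.140 to 0.183 for same-numbered libraries and from -0.251 to 0.227 for differently numbered ones. Deviations from a mean of 3 libraries constrain each other, so these values cannot decide it. With the replicate number as a block, 3 proteasome genes were higher and 2 lower between the treated groups (2258 of all genes called), 3 and 3 between the knockout groups (4316 called) and 1 and 3 between treated wild-type and untreated knockout hearts (2755 called). Depth limits Psmg3 and Psmg4 most, with 23 to 56 reads a library.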

Other observations

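Of 4 genes for ubiquitin and its activating enzymes reported here, Uba6 reached the minimum of 10 only through the groups where it was higher and is left out of the counts. Of the other 3, 2 were higher (Rps27a and Ubb) and 1 lower (Uba1) in treated knockout than in treated wild-type hearts, where 12% of all genes were higher and 15.9% lower. Rps27a, which encodes ubiquitin fused to a ribosomal protein, stood at 105, 95.2 and 106 in treated knockout hearts, 60.1, 72.6 and 81.6 in treated wild-type hearts and 68.7, 66.3 and 67.01 in untreated knockout hearts. The treated knockout libraries were the highest, with log2 differences of 0.52 ± 0.10 from treated wild-type hearts (limma adjusted p = 0.0026; 0.39 after length and GC correction) and 0.59 ± 0.10 from untreated knockout hearts (adjusted p = 0.00022). Uba6, an activating enzyme of ubiquitin, stood at 6.01, 5.84 and 7.30 in treated knockout hearts, 9.63, 11.1 and 10.2 in treated wild-type hearts and 10.4, 10.2 and 8.15 in untreated knockout hearts, and its values are given as a description. Ubb, a polyubiquitin gene, differed by 0.20 ± 0.07 between the treated groups (adjusted p = 0.044), a call lost in 16 of 24 alternatives, among them leaving out any library but treated wild-type replicate 3. Uba1, the main activating enzyme, differed by -0.22 ± 0.07 (adjusted p = 0.030), lost in 10 alternatives, among them leaving out treated knockout replicate 2 or 3 or treated wild-type replicate 1 or 2. Rps27a has a transcript of 791 bases, within the shortest of the 5 length classes. Of these 3 genes 1, Rps27a, was higher and 0 lower in treated than in untreated knockout hearts, where 23.9% of all genes were higher and 27.4% lower. In treated wild-type against untreated knockout hearts 0 were higher and 1, Ubb, lower, a call lost in 19 alternatives. There 16.4% of all genes were higher and 16.9% lower.

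Of 5 shuttle factors reported here, which carry ubiquitinated proteins to the proteasome, 0 were higher and 1 lower in treated knockout than in treated wild-type hearts. That gene, Rad23b, stood at 66.8, 61.4 and 70.1 in treated knockout hearts, 87.2, 92.0 and 82.5 in treated wild-type hearts and 67.8, 72.1 and 67.3 in untreated knockout hearts. Treated wild-type libraries were above all knockout libraries, and the log2 difference between the treated groups was -0.40 ± 0.08 (adjusted p = 0.0029; -0.29 with adjusted p = 0.013 after length and GC correction). Between the knockout groups it was -0.06 ± 0.08 (adjusted p = 0.50). The call between the treated groups held in all 24 alternatives. The same list had 0 higher genes and 1 lower gene in treated against untreated knockout hearts, Ubqln4 by -0.38 ± 0.08 (adjusted p = 0.0017), and 2 higher and 2 lower genes in treated wild-type against untreated knockout hearts. Of all tested genes 27.8% passed between the treated groups, 51.4% between the knockout groups and 33.2% between treated wild-type and untreated knockout hearts.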
